A study of Mus musculus with 2 samples.

Results

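Optic nerves of *Nf1*-OPG mice were searched, cell by cell, for cells with transcripts of oligodendrocyte precursor cells (OPCs) but none of *Gpr17*. A cell was gated on its UMIs, the molecular tags that each stand for 1 captured transcript. The UMIs of *Lhfpl3*, *C1ql1*, *Neu4* and *Pcdh15* had to sum to at least 4, those of *Gpr17* and of *Ptprc* had to be 0, and those of *Mog* and *Mag* could sum to at most 1. *Gpr17* encodes a G protein-coupled receptor of precursors on their way to become oligodendrocytes, *Ptprc* the leukocyte antigen CD45, and *Mog* and *Mag* proteins of myelin. Of 25652 cells with 500 to 5000 genes, 500 to 20000 UMIs and at most 5% mitochondrial UMIs, 690 met these conditions (2.69%, 95% Clopper-Pearson interval 2.50 to 2.90). They are called the gated cells. Library C-ON held 80 of them among 8834 cells (0.906%, 0.719 to 1.13), and library FMC_new held 610 among 16818 (3.63%, 3.35 to 3.92). Since the counts of these 8 genes chose the cells, their levels are given as a description, without a test. These intervals, and those on levels, cover counting error only.

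Both libraries carry the genotype label NF1-OPG. The study's mice of this genotype are *Nf1* flox/mut; GFAP-Cre on a C57BL/6 background, so every cell has a germline mutant *Nf1* allele, and Cre, driven by the GFAP promoter, removes the other allele in cells that have expressed GFAP, neural progenitors included. The sample titles call C-ON a control and FMC_new "FMC new", with no further explanation in the sources used here, and both were treated as libraries of 1 condition. Each suspension pooled nerves of 10 mice at 12 weeks of age. No nerve without a glioma was analysed here, so glioma cells and the normal precursors of these nerves cannot be told apart, and "OPC-like" below refers to markers only. Cells of 1 library share their suspension and are not replicates, so tests were run on counts summed per library and class.

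OPCs are the dividing glial progenitors from which myelinating oligodendrocytes arise, in the optic nerve as elsewhere in the central nervous system. They depend on platelet-derived growth factor through its receptor, the product of *Pdgfra*, and keep their lineage identity through the transcription factors *Olig1*, *Olig2* and *Sox10*. *Gpr17* is switched on for a limited window as a precursor commits and is silent again in the mature cell. Neurofibromin, the product of *Nf1*, turns RAS off, and cells that lose it signal more through RAS and the MAPK cascade.

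Most gated cells passed the gate on *Lhfpl3*, which encodes a tetraspan membrane protein. *Lhfpl3* had a median of 12 UMIs per cell in both libraries, with at least 1 UMI in 96.25% of the gated cells of C-ON and 97.9% of those of FMC_new, and up to 97 and 110 UMIs in a cell. *Pcdh15*, a protocadherin gene, had medians of 4 and 3 UMIs and was found in 92.5% and 79.8% of cells. *C1ql1*, which encodes a secreted C1q-like protein, was found in 70% and 52.3%, and *Neu4*, a sialidase gene, in 63.75% and 52.6%. All 4 genes were present together in 273 of the 690 cells and a single one in 106, while 232 (33.6%) had neither *C1ql1* nor *Neu4*. *Lhfpl3* and *Pcdh15* together gave 86.2% of the UMIs of the 4 genes. The sum ran from 4 to 135 UMIs, with a median of 23.5 in C-ON and 18 in FMC_new. At the sum of 4, just inside the gate, stood 72 cells, of which 13 (18.1%) held *Pdgfra*, and 82 cells with a sum of 3 lay just outside it, of which 11 (13.4%) did. Above 4, 467 of 618 cells (75.6%) held *Pdgfra*. On the *Gpr17* side, 234 further cells missed the gate by a single UMI of that gene.

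The promoters of *Lhfpl3*, *Pcdh15* and *Neu4* are shown because these are marker genes whose UMIs the gate summed. On GRCm38, the mm10 build of the files, *Lhfpl3* spans chr5:22746059-23275597 and *Pcdh15* chr10:73099342-74649737, both on the plus strand. *Neu4* spans chr1:94020451-94028334 on the plus strand and *C1ql1* chr11:102939264-102946688 on the minus strand. The sequences run from 250 bases before to 50 after the start that RefSeq gives and were taken from RefSeq on GRCm38.p6, at chr5:22745804-22746103 for *Lhfpl3*, chr10:73821617-73821916 for *Pcdh15* and chr1:94020243-94020542 for *Neu4*, all on the plus strand. For *Pcdh15* that start lies 722525 bases inside the span given above, and for the other two it lies within 42 bases of the start of the span. Capitals mark CAGCTG, an E-box of the kind that basic helix-loop-helix factors bind. It reads the same on both strands.
Lhfpl3: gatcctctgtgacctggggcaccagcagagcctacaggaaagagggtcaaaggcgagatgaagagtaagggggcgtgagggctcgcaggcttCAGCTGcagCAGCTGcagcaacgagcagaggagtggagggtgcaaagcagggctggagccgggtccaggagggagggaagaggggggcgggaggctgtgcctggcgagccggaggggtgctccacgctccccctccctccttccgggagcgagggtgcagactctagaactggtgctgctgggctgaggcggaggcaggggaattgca
Pcdh15: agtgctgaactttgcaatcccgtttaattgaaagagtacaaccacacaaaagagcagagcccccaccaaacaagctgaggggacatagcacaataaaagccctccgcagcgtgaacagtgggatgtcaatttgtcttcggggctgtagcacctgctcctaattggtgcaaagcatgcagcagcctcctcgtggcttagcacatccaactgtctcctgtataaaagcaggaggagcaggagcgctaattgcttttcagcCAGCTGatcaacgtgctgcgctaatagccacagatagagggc
Neu4: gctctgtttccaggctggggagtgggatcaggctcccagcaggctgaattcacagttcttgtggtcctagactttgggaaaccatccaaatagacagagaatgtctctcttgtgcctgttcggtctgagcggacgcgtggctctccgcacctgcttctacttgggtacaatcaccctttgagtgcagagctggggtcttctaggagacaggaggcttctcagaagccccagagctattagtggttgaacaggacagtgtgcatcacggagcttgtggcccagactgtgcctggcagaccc
The *Lhfpl3* window holds 2 matches, which begin 158 and 149 bases before the start, the *Pcdh15* window holds 1, which begins 8 bases after it, and the *Neu4* window holds 0. Of all 32851 promoter windows of this length, 16.3% hold at least 1 match and 1.90% hold 2 or more. The matches are letters in a window and were not tested as binding sites.

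Most of the gated cells carried transcripts of the oligodendrocyte lineage beyond the genes of the gate, and a part of them did not. At least 1 UMI of *Olig1*, *Olig2* or *Sox10*, 3 genes that the gate did not read, was found in 530 of the 690 cells, 72 of 80 in C-ON and 458 of 610 in FMC_new. The other 160 cells, 8 and 152, had none of these, and this split was chosen after the data had been seen. T cells, chosen by *Ptprc* and at least 2 UMIs of the CD3 genes, had such a UMI in 18.9% (16.5 to 21.6) and 12.3% (11.3 to 13.4), at medians of 3961 and 3640 UMIs against 5026.5 and 6310 in the gated cells, so that 1 UMI alone does not place a cell in the lineage. At least 2 of these UMIs were found in 485 of the 690 gated cells (70.3%), and in 11.0% and 5.58% of T cells. *Pdgfra* stood at 933 CPM (the UMIs of the gene scaled to all UMIs of the cells) in the 530 cells of C-ON and at 754 in those of FMC_new, with exact Poisson 95% intervals of 840 to 1034 and 722 to 787. In the 160 cells it stood at 115.5 CPM (6 UMIs) and 29.0 (20.9 to 39.2, 42 UMIs), and in T cells at 2.71 and 19.4 CPM. UMIs were also summed over 13 OPC genes, *Pdgfra* again and *Cspg4*, *Vcan* and *Ptprz1* among them. Cells with a lineage factor had medians of 65.5 and 62 of these UMIs per cell, and cells without one 10.5 and 6.5. Neither class was uniform. Of the cells without a factor, 0 of 8 and 9 of 152 had no UMI of the 13 genes, and 4 and 56 had at least 10. Of the cells with a factor, 69 of 72 and 420 of 458 had at least 10, while 1 and 2 had none.

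**Figure D1:**
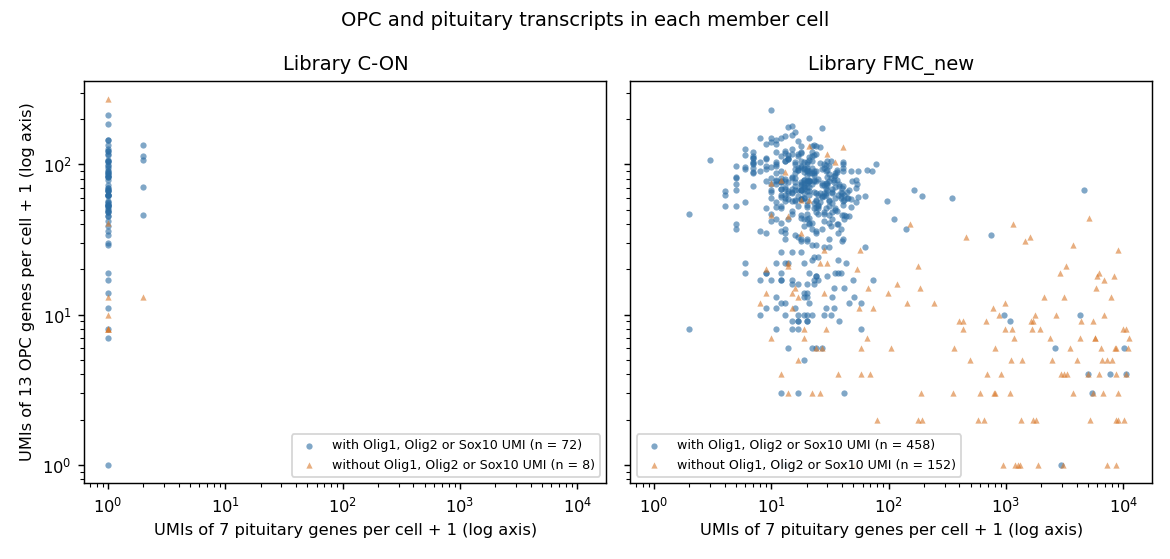
Each point is 1 gated cell of C-ON (left) or FMC_new (right), with the UMIs of 7 pituitary genes plus 1 on the x axis and those of 13 OPC genes plus 1 on the y axis, both on log axes. Blue circles are cells with a UMI of *Olig1*, *Olig2* or *Sox10* (72 and 458) and orange triangles those without (8 and 152). In FMC_new the triangles lie to the right and low, with a median of 890.5 pituitary UMIs against 19 for the circles.

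The cells without a lineage factor differed from the others in 3 further respects. They passed the gate on *Lhfpl3* and *Pcdh15*, which gave 99.4% of their marker UMIs, and 151 of 160 (94.4%) had neither *C1ql1* nor *Neu4*. Transcripts of 7 pituitary genes, such as the hormone genes *Gh* and *Prl*, had a median of 890.5 UMIs per cell in the 152 cells of FMC_new (range 7 to 11122), and 103 of them had at least 100. In the 458 cells with a factor the median was 19, close to the 19 of T cells, 18 of oligodendrocytes and 18 of *Gpr17*-positive cells of that library, and 17 of the 458 had at least 100. In C-ON, where *Gh* and *Prl* had 0 UMIs in the gated cells, the 7 genes summed to 3.75 to 19.3 CPM in these classes. Of 6 neuron markers, such as the synaptic gene *Syt1*, at least 2 UMIs were found in 122 of the 152 cells and in 4 of the 8 of C-ON. The 6 genes summed to 1790 and 1645 CPM in cells without a factor, against 131 and 213 with one. As a class the 160 cells are not called OPC-like here. The calls below are for all 690 gated cells, and for the 530 only where stated.

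*Nf1* (chr11:79339693-79581612, plus strand) was the gene altered in the mice. Its UMIs numbered 69 in the gated cells of C-ON and 419 in those of FMC_new, or 156.5 CPM (122 to 198) and 98.6 (89.4 to 108.5). In *Gpr17*-positive cells, chosen by the same gate except for at least 2 UMIs of *Gpr17*, the levels were 160 (114 to 219) and 92.6 CPM (78.6 to 108.5). In oligodendrocytes, chosen by at least 4 UMIs of *Mog* and *Mag* together, 0 of *Ptprc* and *Gpr17* and at most 1 of the 4 marker genes, they were 56.2 and 51.1, and in T cells 35.4 and 38.1. The intervals of all gated cells and of *Gpr17*-positive cells overlapped within each library. By the quasi-likelihood test of edgeR, with Benjamini-Hochberg adjustment over all genes tested, the log2 difference of gated from *Gpr17*-positive cells was 0.17 (SE 0.23, adjusted p = 0.896), and from oligodendrocytes it was 0.70 (SE 0.21, adjusted p = 0.0114). UMIs read near the 5′ end do not tell whether the floxed part of a transcript was present, so these levels do not check the deletion.

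To ask what sets the gated cells apart from precursors with *Gpr17*, the 690 were compared with 281 *Gpr17*-positive cells, 38 of C-ON and 243 of FMC_new. Of 13508 genes tested, 16 were lower in the gated cells (0.118%) and 129 were higher (0.955%) by edgeR's quasi-likelihood test at an adjusted p under 0.05, with the library as a term. At an unadjusted p under 0.05 the counts were 406 and 978, and the median difference over all genes was 0.02. The 3 classes in 2 libraries leave 2 residual degrees of freedom in this fit. With the library as a term, the p-values measure only how class differences vary between these 2 libraries, oligodendrocytes included. Each library is 1 pool of mice, so the spread between single mice is not measured. With the 530 lineage factor-positive cells, of 12727 genes tested 0 were lower (0%; 190 at an unadjusted p under 0.05, and 3 by DESeq2) and 22 were higher (0.173%; 10 by DESeq2).

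The genes that were lower included a Notch ligand, a lineage transcription factor and a marker of premyelinating cells. *Dll1*, a Notch ligand, had 11 UMIs in the gated cells of C-ON, or 24.9 CPM (12.5 to 44.6), and 85 in those of FMC_new (16.0 to 24.7 CPM). In *Gpr17*-positive cells it had 23 and 120 UMIs, or 94.5 and 72.2 CPM. It was lower in both libraries, by a log2 difference of −1.74 (SE 0.31, adjusted p = 0.0144). *Sox8*, an oligodendrocyte lineage transcription factor, stood at 145 and 72.0 CPM against 427 and 247 (log2 difference −1.56, SE 0.25, adjusted p = 0.00914). *Bcas1*, a marker of precursors that begin to make myelin, stood at 454 and 305 CPM against 981 and 806 (−1.15, SE 0.23, adjusted p = 0.033). For all 3, both libraries of the gated cells stood below both libraries of the *Gpr17*-positive cells. With *Gpr17*-positive cells taken at 1 or more UMIs, *Dll1* and *Sox8* were still called lower and *Bcas1* was not. Thinned to 2000 UMIs per cell, which left out 7 and 60 gated and 1 and 0 *Gpr17*-positive cells, *Sox8* was found in 27.4% and 11.5% of gated cells and in 56.8% and 36.2% of *Gpr17*-positive ones. The unthinned shares were 48.8% and 28.0% against 81.6% and 66.3%. T cells, taken as a background for free RNA with doublets kept, gave 4.57% and 2.05% thinned and 10.6% and 4.35% unthinned. Their medians were 3961 and 3640 UMIs, against 5026.5 and 6310 in the gated cells.

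By edgeR's test these genes did not pass in the cells with a lineage factor, although the differences kept their sign, while the 3 genes that DESeq2 called lower there were *Bcas1*, *Lims2* and *Sox8*. There the log2 difference was −1.39 for *Dll1* (adjusted p = 0.0774), −1.20 for *Sox8* (adjusted p = 0.0657) and −0.87 for *Bcas1* (adjusted p = 0.198) by edgeR's test. *Lims2*, a gene of focal adhesions, was lower as well (−1.52, SE 0.22, adjusted p = 0.00518; −1.14 and 0.0626 with a lineage factor). It overlaps *Gpr17*, the gene of the gate, on the opposite strand of chromosome 18, and how the counting used strand is not given in the sources used here, so its value is uncertain. *Mfsd2a*, which encodes a lysolipid transporter, fell by 1.51 on the log2 scale (adjusted p = 0.0356, edgeR) and *Cdkn1c*, a cyclin-dependent kinase inhibitor, by 1.51 (adjusted p = 0.0361). The other genes named by rule were *Susd5*, *2810468N07Rik*, *Mif4gd*, *Serinc5*, *Gm2a* and *Lrrn1*, with log2 differences of −1.13 to −1.40.

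**Figure D2:**
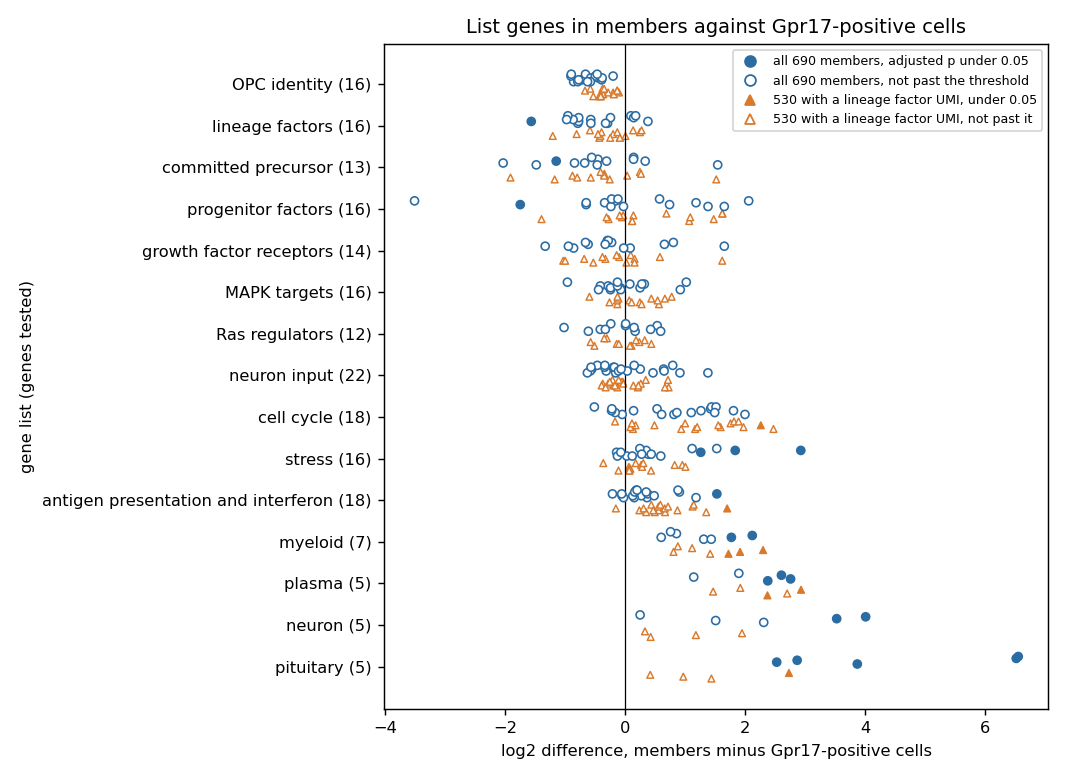
The log2 difference of gated from *Gpr17*-positive cells (x axis) is shown for each tested gene of 15 gene lists (rows, genes tested in brackets). Blue circles use all 690 gated cells, orange triangles the 530 with a lineage factor, and filled symbols have an adjusted p under 0.05. Pituitary genes lie far to the right for all cells, and each OPC identity gene lies left of 0.

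No gene of OPC identity passed the test, although each stood below 0. Of 16 such genes that the gate did not read, 0 passed the test (edgeR, background 0.118% lower and 0.955% higher). The differences ran from −0.90 to −0.20, with a median of −0.60 over the list, against 0.02 over all genes. With a lineage factor the list median was −0.37. The list holds *Olig1*, *Olig2* and *Sox10*, whose UMIs chose the cells with a factor, so this last median is not independent of that choice. *Pdgfra* stood at 837 and 507 CPM in gated cells and at 1577 and 1038 in *Gpr17*-positive cells (log2 difference −0.86, SE 0.27, adjusted p = 0.199, edgeR). *Cspg4*, the proteoglycan NG2, stood at 252 and 163 CPM against 402.5 and 321 (−0.72, adjusted p = 0.158). *Olig2* stood at 551 and 331 CPM against 908 and 687 (−0.77, adjusted p = 0.158). *Pdgfra* was found in 72.6% and 54.0% of gated cells thinned to 2000 UMIs, in 91.9% and 79.8% of *Gpr17*-positive cells and in 0.247% and 1.96% of T cells, and unthinned in 78.8% and 68.4%, 94.7% and 95.1%, and 0.433% and 2.56%.

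Among progenitor genes *Dll1* was the one that passed. *Fabp7*, the brain lipid-binding protein of glial progenitors, stood at 592 and 437 CPM against 517 and 782. *Hes5*, a Notch target, had 9 UMIs in the gated cells of both libraries together (log2 difference −3.51, SE 0.79, adjusted p = 0.058, edgeR). Of the 16 progenitor genes 15 did not pass. Among 16 lineage factors 1 was lower, *Sox8*, and among 13 genes of committed precursors 1 was lower, *Bcas1*. The share of all genes called lower was 0.118%.

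RAS, MAPK and receptor genes gave 0 calls against *Gpr17*-positive cells by edgeR's test. Over all genes 0.955% were called higher and 0.118% lower, so that lists of this size would hold few or no calls at the background share. The list medians were 0.01 for 12 genes that restrain RAS, −0.10 for 16 MAPK feedback and target genes, −0.29 for 14 growth factor receptor genes and −0.13 for 22 genes of synaptic input. *Etv5*, an ETS factor downstream of MAPK, stood at 177 and 116.5 CPM against 250.5 and 171.5 (log2 difference −0.41, SE 0.20, adjusted p = 0.539). *Ccnd1*, the cyclin D1 gene, stood at 966 and 987 CPM against 842 and 855 (0.32, SE 0.26, adjusted p = 0.77). *Nlgn3*, whose shed synaptic protein drives glioma growth, stood at 111 and 73.9 CPM against 140 and 149 (−0.63, SE 0.24, adjusted p = 0.319). The lists of matrix genes (16 tested, median −0.38), paracrine mediators (16, 0.24), sialic acid enzymes (10, 0.14), myelin (14, −0.02) and astrocytes (11, 0.16) held 0 calls as well, as did those of T cells (5 tested), Schwann cells (2) and fibroblasts (1), while 0 endothelial genes could be tested.

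Among the 129 genes that were higher, pituitary, neuronal and immunoglobulin genes led. All 5 pituitary genes tested were higher (background 0.955%), such as *Cga*, the shared hormone subunit (log2 difference 6.52, SE 0.65, adjusted p = 0.000354, edgeR), *Gh* (3.87, SE 0.49, adjusted p = 0.00353), *Prl* (2.53, adjusted p = 0.0171) and *Pomc* (2.87, adjusted p = 0.0121). *Gh* had 0 UMIs in the gated cells of C-ON and 296369 in those of FMC_new, or 69750 CPM. Of these UMIs 38261 lay in the 458 cells with a factor, 27672 of them in 5 cells. *Gh* and *Prl* also had 0 UMIs in the *Gpr17*-positive cells of C-ON, where *Cga* had 1 UMI against 0 and *Pomc* 5 against 2, so these differences rest on FMC_new. In the 530 cells 1 of 4 pituitary genes remained higher, *Cga* (2.73, adjusted p = 0.0173). *Syt1* (3.53, SE 0.38, adjusted p = 0.000658) and *Stmn2*, a neuronal tubulin regulator (4.01, adjusted p = 0.0356), were higher, and in the 530 cells neither passed (1.18 and 1.95, adjusted p = 0.474 and 0.961). *Vip*, a neuropeptide gene, had 11 and 322 UMIs against 0 and 0, at least 45.1-fold higher than the floor of 3 UMIs over both libraries allows, but 274 of the 322 came from 1 cell and all 11 from another. *Gm1604a* (50 and 133 UMIs) and *Mamdc2* (2 and 69 UMIs) also had 0 UMIs in *Gpr17*-positive cells, and were at least 24.8-fold and at least 9.62-fold higher in the gated cells. Of the *Gm1604a* UMIs, 43 of the 50 in C-ON lay in 1 cell, and 122 of the 133 in FMC_new lay in cells without a factor. The others named by rule, with differences of 5.15 to 5.71, were *Rmst*, *Fam183b*, *Mrap2*, *Ighg2c*, *Iqsec3*, *Scg2*, *Zdbf2* and *Dnah9*. Of the *Ighg2c* UMIs, 372 of 404 in C-ON lay in 1 cell and 1493 of 1583 in FMC_new lay in the 5 highest cells. Of the UMIs of *Scg2*, which encodes a secretory granule protein, 176 of 177 in C-ON and 1264 of 1473 in FMC_new lay in the 160 cells without a factor.

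A few immune genes were higher in the gated cells, also in those with a lineage factor. Called higher were 1 of 18 genes of antigen presentation and interferon response, 2 of 7 myeloid genes and 0 of 5 T cell genes (background 0.955%), and with a factor 1 of 18, 3 of 7 and 0 of 4 (background 0.173%). *Cd74*, the invariant chain of MHC class II, stood at 406 and 890 CPM against 131 and 386 in *Gpr17*-positive cells, 144 and 586 in oligodendrocytes and 1756 and 3936 in T cells. It was higher by 1.53 (SE 0.26, adjusted p = 0.0121, edgeR), and by 1.70 with a factor (adjusted p = 0.00595). In C-ON 38.8% of the gated cells had a *Cd74* UMI and in FMC_new 63.1%, and the 5 highest cells held 114 of its 179 and 1283 of its 3780 UMIs. The complement genes *C1qa* (1.77, adjusted p = 0.0203, edgeR) and *C1qb* (2.12, adjusted p = 0.0203), markers of macrophages and microglia, were higher. In C-ON all 13 *C1qa* UMIs lay in 1 cell, and 25 of the 27 *C1qb* UMIs lay in 1 cell. In FMC_new the 5 highest cells held 303 of 585 *C1qa* and 298 of 578 *C1qb* UMIs. With a factor the differences of *C1qa* and *C1qb* were 1.92 and 2.30 (adjusted p = 0.0146 and 0.0121, edgeR). *Tyrobp*, a myeloid adaptor, joined them (1.72, adjusted p = 0.0423). Among the FMC_new cells with a factor, the 5 highest held 278 of 453 *C1qa* and 281 of 465 *C1qb* UMIs. The 7 myeloid markers summed to 141 and 482 CPM in gated cells, 20.5 and 212 in *Gpr17*-positive cells, 71.6 and 395 in oligodendrocytes and 342 and 1501 in T cells. *Cx3cr1* and *Aif1* were at 0 in the gated cells of C-ON. *Ptprc* was 0 by the gate in these cells, and the part of myeloid RNA in the *Cd74* difference was not tested.

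A few cells held a large part of the immunoglobulin transcripts, while low counts were found in many cells of FMC_new. The immunoglobulin genes are many and alike, so single genes are uncertain. *Jchain* (2.38, SE 0.45, adjusted p = 0.0234, edgeR), *Igkc* (2.76, adjusted p = 0.0352) and *Igha* (2.61, adjusted p = 0.00222), 3 of 5 plasma cell genes tested, were higher in gated cells (background 0.955%). In C-ON 370 of 452 *Igkc* UMIs lay in 1 cell. Of the *Igha* UMIs, 51 of 57 in C-ON and 450 of 897 in FMC_new lay in the highest cell of the library. In FMC_new *Igkc* was found in 385 and *Jchain* in 591 of the 610 cells, and the 5 highest cells held 46.4% and 45.01% of their UMIs. Immunoglobulin genes took 2.33% and 1.51% of the UMIs of gated cells and 0.0842% and 0.574% of those of *Gpr17*-positive cells, while the medians per cell were near each other, 5.5 and 36 against 4 and 35 UMIs. The 5 plasma cell genes summed to 2771 and 1999 CPM in gated cells, 152 and 893 in *Gpr17*-positive cells and 8549 and 6039 in T cells.

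Stress genes were called higher more often than genes as a whole, though not in the cells with a lineage factor. Of 16 stress genes 3 were higher (edgeR, background 0.955%), the immediate early genes *Atf3* (1.84, SE 0.38, adjusted p = 0.0363) and *Zfp36* (1.26, SE 0.23, adjusted p = 0.0186) and the heat shock gene *Hspa1a* (2.93, SE 0.60, adjusted p = 0.0356), whose reads are uncertain because *Hspa1b* is a near-identical copy. In C-ON 15 of 17 *Atf3* UMIs lay in 1 cell, and in FMC_new 221 of 249 *Hspa1a* UMIs lay in cells without a factor. *Zfp36* was found in 401 of 610 gated cells of FMC_new. In the cells with a factor 0 of the 16 stress genes passed, and the difference of *Hspa1a* was 0.83. Of 18 genes of antigen presentation and interferon response 1 passed, *Cd74*. *H2-Eb1*, a class II chain (1.18, SE 0.28, adjusted p = 0.0639), and *Cxcl10*, an interferon-induced chemokine (1.62, SE 0.43, adjusted p = 0.12), did not.

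*Gfap*, the astrocyte filament gene whose promoter drives Cre in these mice, was uneven across the gated cells. It stood at 900 CPM (814 to 993) in C-ON and 106 (96.1 to 116) in FMC_new, against 12.3 and 76.4 in *Gpr17*-positive cells (log2 difference 2.61, SE 0.75, adjusted p = 0.15, edgeR). In C-ON 395 of its 397 UMIs lay in the 5 highest of the 80 cells and 222 in 1. In FMC_new 449 UMIs were spread over 128 of 610 cells, with at most 21 in a cell. *Aqp4*, the astrocyte water channel, stood at 68.0 and 23.1 CPM, and 29 of its 30 UMIs in C-ON lay in the 5 highest cells. The 14 astrocyte markers summed to 2159 and 858 CPM in gated cells and to 21337 and 11724 in cells gated as astrocytes, of which C-ON had 4 and FMC_new 45, too few in C-ON for a test. *Gjb6*, *Aldh1l1* and *S1pr1* were at 0 in the gated cells of C-ON.

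Set against 6924 oligodendrocytes, 4946 of C-ON and 1978 of FMC_new, the gated cells differed in a large part of the genes. Of 13508 tested, 3545 were higher (26.2%) and 3229 lower (23.9%) by edgeR's quasi-likelihood test. Both classes were chosen by genes of their lineage, so the directions of OPC and myelin genes follow from the choice. Of 16 OPC identity genes 14 were higher, with a list median of 6.45, against −0.04 over all genes. In the 530 cells, which UMIs of 3 of these genes chose, 15 of the 16 were higher. *Pdgfra* was at 0.607 and 1.05 CPM in oligodendrocytes (log2 difference 9.24, SE 0.39, adjusted p = 4.83e-09) and *Cspg4* at 0.405 and 0.418 (8.45, SE 0.30, adjusted p = 4.38e-09). *Olig1* (0.52, adjusted p = 0.096) and *Sox10* (−0.44, adjusted p = 0.135), which the whole lineage uses, were the 2 that did not pass in all 690. All 14 myelin genes were lower, with a median of −6.26. *Mbp*, the myelin basic protein gene, fell by 2.29 (adjusted p = 1.45e-05) and *Trf*, transferrin, by 7.08 (adjusted p = 5.21e-09) on the log2 scale. *Mbp* stood at 3321 and 2910 CPM in T cells, above its 2751 and 1900.2 in the gated cells. The T cell gate set no limit on *Mog* and *Mag*, and single T cells held up to 1812 and 1796 UMIs of the 14 myelin genes.

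**Figure D3:**
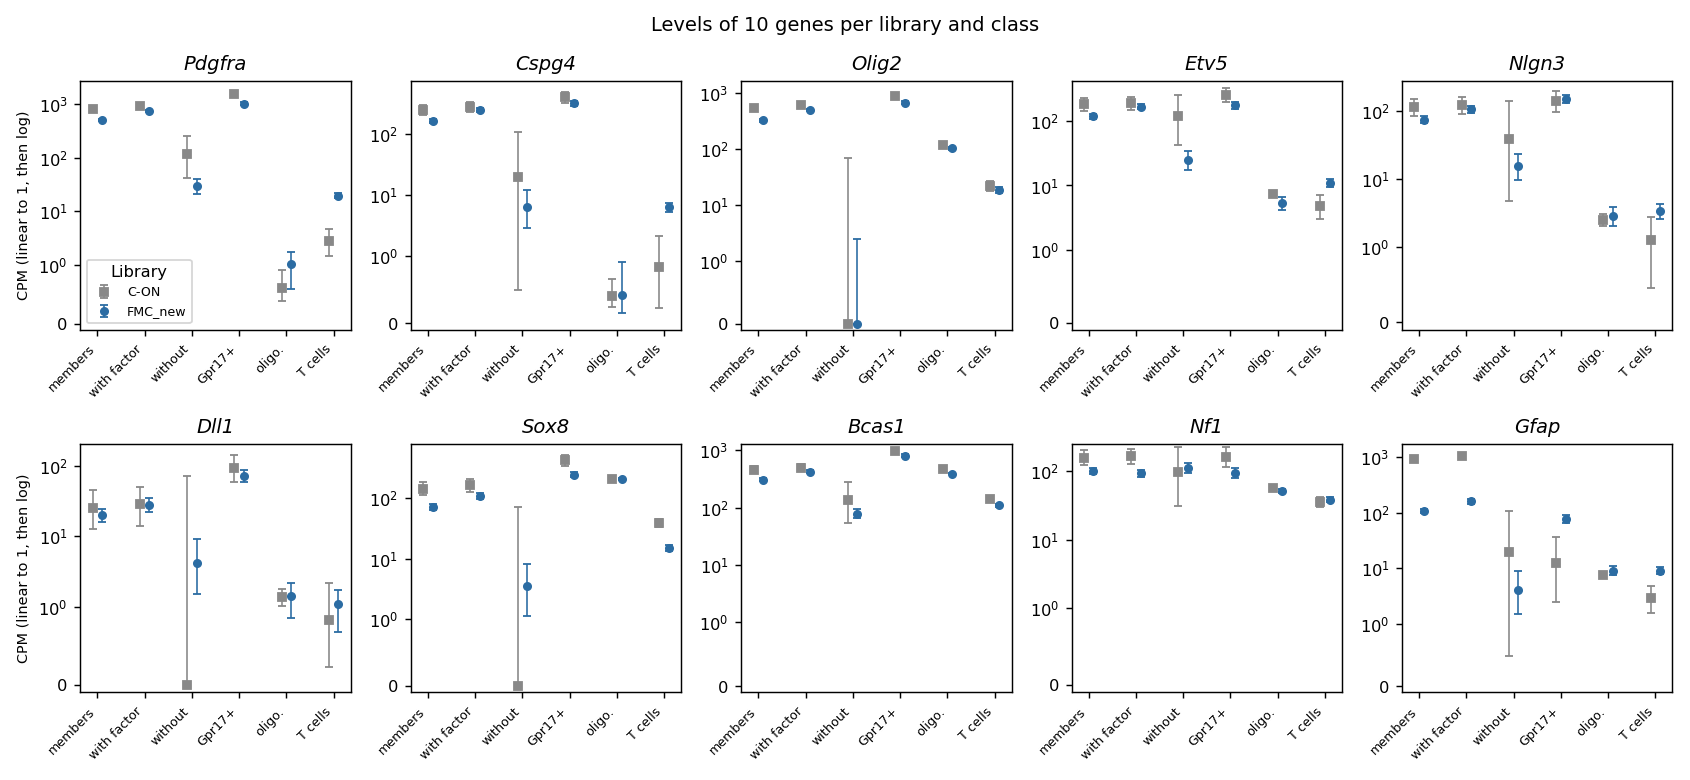
Levels of 10 genes are given in CPM (y axis, linear to 1 and log above) for 6 classes: all gated cells ("members"), those with and without a lineage factor, *Gpr17*-positive cells, oligodendrocytes and T cells. Gray squares are C-ON, blue circles FMC_new, and bars exact Poisson 95% intervals. In all gated cells *Pdgfra* and *Cspg4* lie at least 10-fold above oligodendrocytes in both libraries.

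MAPK feedback and target genes were higher in the gated cells than in oligodendrocytes. Of 16 tested, 14 were higher and 1 was lower (edgeR, background 26.2% and 23.9%), with a median of 3.51. *Etv5* stood at 177 and 116.5 CPM against 7.41 and 5.37 (log2 difference 3.96 in C-ON and 4.05 in FMC_new, adjusted p = 1.01e-08), and *Etv4*, a related factor, at 122.5 and 76.3 against 0.278 and 0.418 (7.67, SE 0.33, adjusted p = 4.83e-09). The feedback inhibitors *Spry4* (5.79, adjusted p = 8e-08) and *Dusp6*, an ERK phosphatase (3.38, adjusted p = 2.98e-06), and *Ccnd1* (6.26, adjusted p = 5.91e-09) were higher as well. *Etv1*, another ETS factor, was the gene that fell, by 2.69 (adjusted p = 6.14e-07). The genes that restrain RAS moved both ways, 5 higher and 4 lower of 12, with a median of 0.00. Among them *Nf1*, *Spred2* (2.11, adjusted p = 2.58e-05), *Spred3* and *Rasa2* (0.82, adjusted p = 0.0167) were higher, and *Rasal1*, *Rasal2* (−1.34, adjusted p = 0.00027), *Lztr1* (−0.86, adjusted p = 0.00852) and *Rasa3* were lower. T cells held *Dusp6* at 21.2 and 28.4 CPM, against 45.4 and 36.7 in the gated cells.

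Growth factor receptors and ligands divided between the classes. Of 14 receptor genes 8 were higher in the gated cells and 2 lower (edgeR, background 26.2% and 23.9%). *Ntrk3*, the neurotrophin-3 receptor gene (7.22, SE 0.28, adjusted p = 4.77e-09), *Ntrk2* (4.95, adjusted p = 1.63e-06) and *Egfr* (3.09, adjusted p = 0.000953) were higher, while *Erbb3*, a neuregulin receptor gene (−1.18, adjusted p = 0.000833), and *Fgfr2* (−2.71, adjusted p = 6.21e-07) were lower. Of 16 paracrine mediators 6 were higher and 5 lower. *Mdk*, the growth factor midkine, stood at 243 and 172 CPM against 1.44 and 3.34 (6.01, SE 0.34, adjusted p = 1.16e-08). *Tgfb2* (5.13, adjusted p = 1.7e-06, edgeR) and *Cxcl10* (4.17, adjusted p = 2.55e-06) were higher too. All 10 *Cxcl10* UMIs of C-ON lay in 1 gated cell. In FMC_new 28 of 610 gated cells held its 270 UMIs, and 177 of these lay in the 5 highest. *Pdgfa*, which encodes a ligand of the *Pdgfra* receptor, stood at 38.6 and 29.7 CPM against 296 and 306 (−3.69, SE 0.25, adjusted p = 4.8e-08). *Fgf1* (−4.00, adjusted p = 4.76e-08) and *Csf1*, a macrophage growth factor (−2.64, adjusted p = 1.24e-06), were also lower. *Ccl5*, a chemokine gene, was lower by a smaller amount (−0.93, adjusted p = 0.0227).

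Genes for neuronal input were mostly higher than in oligodendrocytes. Of 22 tested, 18 were higher and 2 lower (edgeR, background 26.2% and 23.9%), with a median of 4.65. The AMPA receptor subunit gene *Gria2* stood at 474 and 213 CPM against 4.58 and 5.64 (5.48, SE 0.32, adjusted p = 1.53e-08), and in the gated cells without a lineage factor it stood at 385 and 126.5. *Grm5*, a metabotropic glutamate receptor gene (7.78, adjusted p = 4.77e-09), *Grin3a*, an NMDA receptor subunit gene (7.05, adjusted p = 8.15e-08), and *Nlgn3* (4.58, adjusted p = 1.17e-08) were higher. *Adam10*, the protease that sheds the neuroligin-3 protein, fell by 1.35 (adjusted p = 0.000159) and *Grm7* by 0.69 (adjusted p = 0.0226). Neuron markers moved with this list, since all 5 tested were higher than in oligodendrocytes too, and they summed to 327 and 701 CPM in the gated cells against 1.90 and 16.0 in oligodendrocytes. In the 530 cells with a factor the sum was 131 and 213 CPM, while the differences were 5.69 for *Gria2*, 8.07 for *Grm5* and 4.92 for *Nlgn3*.

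Most of the progenitor genes were higher than in oligodendrocytes, while lineage factors moved both ways. Of the 16 progenitor genes 13 were higher and 0 lower, and of 16 lineage factors 4 were higher and 6 lower (background 26.2% higher and 23.9% lower). In the 530 cells 7 of the 16 lineage factors were higher and 6 lower, against 3344 and 3063 of all 12727 genes. This list holds *Olig1*, *Olig2* and *Sox10*, whose UMIs chose the 530 cells. *Dll3*, a Notch pathway ligand (9.27, SE 0.41, adjusted p = 4.83e-09, edgeR), *Fabp7* (6.52, adjusted p = 5.21e-09), and the transcription factors *Sox5* (6.56, adjusted p = 9.33e-09) and *Sox6* (6.98, adjusted p = 4.83e-09), which hold precursors back from maturing, were higher. *Myrf*, which switches on myelin genes, fell by 5.47 (adjusted p = 5.88e-09), and *Sox8* by 1.57 (adjusted p = 0.00011). For *Sox8* the order of levels was thus *Gpr17*-positive cells at 427 and 247 CPM, oligodendrocytes at 212 and 206, and gated cells at 145 and 72.0. In FMC_new the first 2 of these were close, 247 (223 to 272) against 206 (199 to 214). *Enpp6*, a gene of newly formed oligodendrocytes, stood at 29.5 CPM (13 UMIs) and 0.941 (4 UMIs) in gated cells, at 0 and 26.5 in *Gpr17*-positive cells and at 355 and 303 in oligodendrocytes (−6.41, adjusted p = 1.49e-05).

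Matrix, immediate early and astrocyte genes were also mostly higher than in oligodendrocytes (edgeR, background 26.2% and 23.9%). Of 16 matrix genes 14 were higher and 0 lower, and *Vcan*, the proteoglycan versican, stood at 966 and 430 CPM against 1.57 and 2.30 (7.95, SE 0.40, adjusted p = 5.6e-09). Of 16 stress genes 13 were higher and *Hsp90aa1* was lower. *Egr1*, which also answers MAPK signals, stood at 1304 and 1980 CPM against 46.1 and 144 in oligodendrocytes and 208 and 482 in T cells (3.75, SE 0.33, adjusted p = 6.43e-07). In *Gpr17*-positive cells *Egr1* stood at 1790.5 and 1952 CPM. Genes of this list also rise on tissue dissociation, and the part of dissociation was not tested. Of 11 astrocyte genes 8 were higher, among them *Aldoc*, a glycolytic enzyme gene, at 456 and 266 CPM against 10.9 and 23.4 (3.93, adjusted p = 5.77e-07). Of 18 antigen presentation and interferon genes 5 were higher and 4 lower, and they included *Irf1* (2.08, adjusted p = 6.47e-05) and *Iigp1*, an interferon-induced GTPase gene (−1.71, adjusted p = 7.21e-05). In the 530 cells 9 of these 18 were higher and 3 lower, against 3344 and 3063 of all 12727 genes. Of 10 sialic acid enzymes 2 were higher and 3 lower. *St8sia1*, the GD3 synthase gene, had 12 and 122 UMIs against 12 and 7 (5.67, adjusted p = 1.09e-07), and *St8sia5* fell by 3.96 (adjusted p = 5.19e-06). Of 13 genes of committed precursors 5 were higher and 5 lower, among them *Bcas1* (−0.69, adjusted p = 0.0201). Of the other cell types, pituitary (5 of 5) and plasma cell genes (1 of 5) were higher, 2 of 2 Schwann cell genes were lower, and 0 of 7 myeloid and 0 of 5 T cell genes passed. In the 530 cells 4 of 4 pituitary, 3 of 5 plasma cell and 1 of 7 myeloid genes were higher. There 2 of 2 Schwann cell and 1 of 1 fibroblast genes were lower, and 0 of 4 T cell genes passed.

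The genes farthest apart by fold had 0 UMIs in 1 of the classes. *Tac1*, the substance P precursor gene, had 30 and 60 UMIs in the gated cells and 0 in all 6924 oligodendrocytes, at least 345-fold higher against a floor of 3 UMIs over both libraries. *Fbll1* (15 and 72 UMIs), *Ripply2* (7 and 67) and *Cd276*, an immune checkpoint gene (6 and 57), were at least 333-fold, at least 283-fold and at least 241-fold higher. *Tac1* was found in 21 and 48 gated cells, and *Ripply2* in 6 and 63, so that neither rests on 1 cell. *Gsx1*, a homeobox gene of neural progenitors, had 26 and 286 UMIs against 0 and 2 (9.65, SE 0.49, adjusted p = 6.47e-09, edgeR). In the other direction *Gm44866* (5178 and 1177 UMIs in oligodendrocytes) and *Nipal4* (3406 and 1002) had 0 UMIs in the gated cells and were at least 184-fold and at least 128-fold lower. The remaining genes named by rule were *Lrrc3b*, *Gal3st3*, *Gm11650*, *Pnlip*, *Sapcd2*, *Slc7a3* and *Dll3* among those higher, and *Gm12326*, *Slc34a3*, *Gm816*, *Dnah14*, *Gm49767*, *BC051408*, *Gm48371*, *Trpv3*, *Gm20619* and *Gm34776* among those lower.

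Transcripts of 5 cell cycle genes were found at 2 or more UMIs in a small share of the gated cells, although single UMIs were common. At least 1 UMI of any of 18 cell cycle genes was found in 40% and 45.4% of gated cells, 39.5% and 51.03% of *Gpr17*-positive cells and 49.9% and 50.9% of oligodendrocytes. At least 2 UMIs among 5 cell cycle genes were found in 2 of 80 and 28 of 610 gated cells, 4.35% in all (2.95 to 6.15). The share was 2.85% (1.24 to 5.53) in *Gpr17*-positive cells, 8 of 281, an interval that overlaps the first. By library it was 2.5% in C-ON and 4.59% in FMC_new for gated cells, and 7.89% (3 of 38 cells) and 2.06% (5 of 243) for *Gpr17*-positive cells. Of the 30 gated cells, 29 had a lineage factor. In oligodendrocytes the share was 0.202%, and in T cells 8.22%. The cycling gated cells were deeper, with a median of 9303 UMIs against 6124.5 for the others, and the part of depth in the shares was not tested. *Mki67*, the Ki-67 gene, stood at 27.2 and 20.9 CPM in the gated cells, 0 and 22.3 in *Gpr17*-positive cells and 0.354 and 1.60 in oligodendrocytes. Against *Gpr17*-positive cells its difference was 0.82 (SE 0.69, adjusted p = 0.786, edgeR), and that of *Top2a*, a topoisomerase of dividing cells, 1.10 (SE 0.54, adjusted p = 0.525). The list of 18 cell cycle genes had a median of 0.84, and of 1.19 with a factor, where *Cenpf*, a mitotic gene, passed (2.26, adjusted p = 0.0322). Against oligodendrocytes 15 of the 18 were higher (background 26.2%) and *Pcna* was lower (−0.82, adjusted p = 0.00569, background 23.9%).

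The share of cells without *Gpr17* varied with depth. Among the 1205 cells that passed the gate without its *Gpr17* condition, 690 (57.3%) had no UMI of the gene, 80 of 160 in C-ON and 610 of 1045 in FMC_new (58.4%). Among the 1040 of them with a lineage factor, the share was 51.0% (47.9 to 54.0). It was 85.0% (73.4 to 92.9) at 500 to 2000 UMIs, 58.1% (49.7 to 66.2) at 2000 to 4000, 44.8% (40.9 to 48.8) at 4000 to 8000 and 54.7% (47.6 to 61.7) at 8000 to 20000. The share did not fall further in the deepest cells. How many gated cells held *Gpr17* transcripts that were not captured was not tested. Restricting all classes to 3000 to 10000 UMIs left 10 genes lower in gated than in *Gpr17*-positive cells, *Dll1*, *Sox8*, *Bcas1* and *Lims2* among them.

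**Figure D4:**
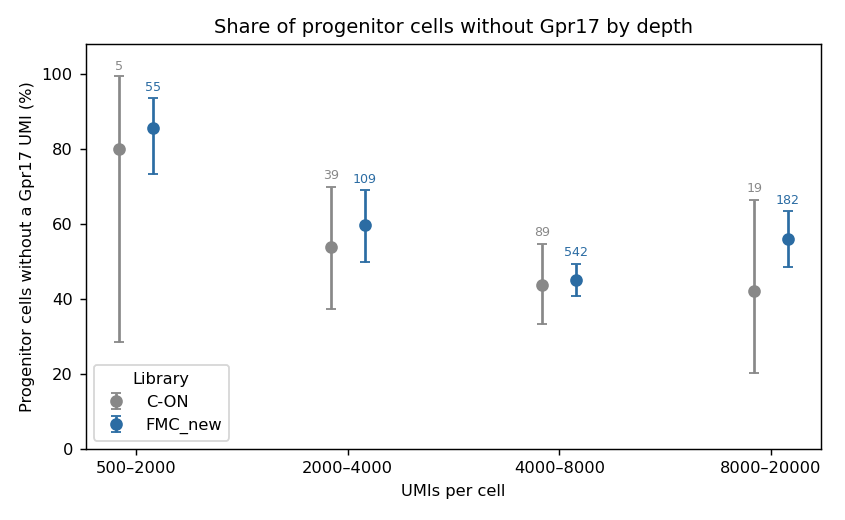
The share of progenitor cells with a lineage factor that have no *Gpr17* UMI (y axis, percent) is shown by UMIs per cell (x axis, 4 ranges) for C-ON (gray) and FMC_new (blue), with Clopper-Pearson 95% intervals and cell numbers above the points. The share is highest in the shallowest range, 80% of 5 cells and 85.5% of 55, and lies between 42.1% and 45.02% at 4000 UMIs and above in C-ON and at 4000 to 8000 in FMC_new. In the deepest range of FMC_new it is 56.0%.

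The gated cells with a lineage factor were themselves mixed. *Pdgfra* was found in 61 of 72 in C-ON and 402 of 458 in FMC_new. Cells with *Pdgfra* held *Fabp7* at 755 and 720 CPM, while the 11 and 56 cells without it held *Fabp7* at 63.6 and 107. In C-ON the 11 cells without *Pdgfra* held *Bcas1* at 1695 CPM and *Enpp6* at 233 (11 UMIs in 4 cells, 7 of them in the highest), against 331 and 2.93 (1 UMI) in the 61 with it. The shares of cells with a *Bcas1* UMI were close, 9 of the 11 and 48 of the 61. Of the 193 *Bcas1* UMIs in these 72 cells, the 5 highest cells held 84. In FMC_new *Bcas1* was not higher without *Pdgfra*, at 260 against 439. *Enpp6* stood there at 3.56 against 0.397, with 1 UMI in each group. The cells without *Pdgfra* were also shallower, with medians of 3763 and 2471 UMIs against 5093 and 6099.5. These are values of single cells grouped by a measured gene, and they were not tested.

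Between the libraries, levels in the gated cells are given as values, since there is 1 library of each name. The gated cells of C-ON held more of the nuclear RNA *Malat1* (15019 against 10372 CPM) and of the adhesion molecule genes *Lsamp* (3408 against 1530) and *Opcml* (2184 against 819). In T cells *Malat1* also stood higher in C-ON, at 6469 against 4940 CPM. There *Lsamp* stood at 44.3 against 72.9 CPM and *Opcml* at 35.6 against 34.1. *Igkv8-19*, an immunoglobulin gene, stood at 14144 CPM in the gated cells of C-ON against 0.235, but 6201 of its 6237 UMIs there lay in 1 cell. The gated cells of FMC_new held more *Gh*, *Prl* and *Pomc* (6804 against 11.3 CPM), as given above. They also held more of the hemoglobin gene *Hbb-bs* (2047 against 27.2 CPM) and of the elongation factor gene *Eef1a1* (3686 against 2358 CPM). *Hbb-bs* stood at 198 CPM in the FMC_new cells with a lineage factor and at 1496 in its T cells. *Ccl2*, a monocyte chemokine gene, stood at 122 against 12.7 CPM, and 40 of its 54 UMIs in C-ON lay in 1 cell. *Pdgfra*, at 837 and 507 CPM over all gated cells, came to 933 and 754 in those with a factor.

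The libraries as a whole held 85101211 UMIs over 10845 barcodes (C-ON) and 129113325 over 21341 (FMC_new). The kept cells had medians of 6810.5 and 4676 UMIs, and the gated cells 5026.5 and 6310. They summed to 440964 and 4249025 UMIs in the gated cells, so the values of C-ON are the less precise. The libraries had 296 barcodes in common, and 0 of these were gated in both. An 8% share of cells with the highest doublet scores in each library held 3.75% of the gated cells of C-ON and 11.3% of those of FMC_new.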

How the data were processed

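The 2 libraries were made with a 10x Genomics kit that reads transcripts from the 5′ end. The authors aligned reads to mm10 (GRCm38) with Cell Ranger, version 7.2.0 per the labels (the study's methods name an earlier release), and deposited raw UMI counts, without normalization, for 32285 genes and the barcodes called as cells. Whether intronic reads were counted, and how strand was used, is not given in the sources used here. Published mouse libraries that the study merged with these were not analysed here.

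Counts were used as deposited. UMIs were summed per library and class, and the 3 classes (gated cells, *Gpr17*-positive cells and oligodendrocytes) entered 1 fit of edgeR 4.0.16 under R 4.3.3 (quasi-likelihood test, TMM scaling, its default filter on low counts, library and class as terms, 2 residual degrees of freedom). The p-values were adjusted by Benjamini-Hochberg over all genes, with calls at an adjusted p under 0.05. The 8 genes of the gate were left out of the counts of calls. The SE is the log2 difference divided by the root of the F statistic. The library pairs the classes, which come from the same suspension. T cells (*Ptprc* and at least 2 UMIs of CD3 genes) were taken as a background for free RNA. Their gate set no limit on genes of other cell types, and doublets were kept. Single T cells held up to 1812 and 1796 UMIs of the 14 myelin genes, against medians of 16 and 14. The part of doublets in T cell levels and shares was not tested. Astrocytes, with 4 cells in C-ON, were not tested. Shares were thinned to 2000 UMIs per cell, and a floor of 3 counts was used for a class at 0. Genes were named from 24 lists or, by rule, as the 12 with the highest and 12 with the lowest log2 difference among those called in a comparison, with the same direction in each library and at least 50 UMIs in the higher class, and between libraries as the 8 with the largest difference in CPM each way. Of the list genes, 1 was not matched. The members and the lists were chosen with earlier results of these data known. Doublets were kept, as the automatic limit of scrublet (scanpy 1.11.5) marked 1 and 0 cells and so had not worked. DESeq2 1.42.0 was an alternative. Python 3.11.15, numpy 2.4.6, scipy 1.17.1 and pandas 2.3.3 were used for the rest. The fit was tested on simulated data. Some genes are not reported here.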

Additional observations from a re-analysis of the deposited data

Results flagged for a closer look

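Outside the limits on genes, UMIs and mitochondrial share, 170 barcodes met the 4 conditions on genes, and no comparison above uses them. They were 20 in C-ON and 150 in FMC_new. Of these, 85 were over the mitochondrial limit, 62 over the limit on UMIs, 36 over that on genes and 15 under it, and a barcode can count more than once. A UMI of *Olig1*, *Olig2* or *Sox10* was found in 51 of the 170, against 530 of the 690 gated cells. Whether these barcodes are cells was not tested.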

How the results depend on the processing

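The counts against oligodendrocytes stayed within 1.5 times under 12 alternatives (2941 to 3869 higher, 2228 to 4226 lower). Against *Gpr17*-positive cells they moved. The genes higher numbered 73 with DESeq2's size factors in edgeR, 66 with DESeq2, 399 without a filter on low counts and 380 with only the 2 classes compared in the fit, and the genes lower 4, 8, 59 and 121. With a marker sum of at least 8 they were 23 and 2, with the 8% highest doublet scores left out 198 higher, and with cells of 3000 to 10000 UMIs 10 lower. With only lineage factor-positive cells they were 22 and 0, and with DESeq2 on these 10 and 3. The last 2 settings and the doublet scores were added after seeing the data, and the cause of these moves was not tested. Of the 23 genes higher at a marker sum of 8, 22 were among the 129, and the 2 that were lower there were *Lims2* and *Sox8*. With *Gpr17*-positive cells taken at 1 or more UMIs of *Gpr17*, 110 genes were higher and 12 lower. Of the 110, 95 were among the 129, and of the 12, 6 were among the 16. At 5 or more UMIs 139 were higher and 22 lower, and 95 and 13 of these were among the 129 and the 16.

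The library pairs the classes, since each pair comes from 1 suspension. Without the library as a replicate block, 0 genes were higher and 0 lower by edgeR (623 and 305 at an unadjusted p under 0.05), so the calls rest on the pairing. The difference of *Nf1* from *Gpr17*-positive cells was −0.03 with those set at 5 or more UMIs of *Gpr17*. The share of gated cells was 1.15% in C-ON and 4.59% in FMC_new among cells of 3000 to 10000 UMIs. In FMC_new it was 2.75% at a marker sum of 8, 4.07% at 3 and 2.72% with a lineage factor. With 1 library left out, the pooled share was 0.906% to 3.63%, and a fit of 1 library gives no test. Among 690 cells in 2 pools, genes with few UMIs in C-ON are the least certain.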
